A study of Homo sapiens with 16 samples.

Results

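The proteasome genes of this RNA sequencing series were taken as every Entrez gene identifier whose HGNC symbol starts with PSMA, PSMB, PSMC, PSMD, PSME, PSMF or PSMG followed by a number and which was listed in at least 1 of the 16 libraries. They came to 49 of 16697 identifiers. Of these, 47 encode parts, activators, inhibitors or assembly chaperones of the proteasome, and 2, PSMC3IP and PSME3IP1, matched by symbol only. The 48 that were listed in every library were abundant enough to be tested. The remaining member, PSMB11, the beta subunit of the thymus proteasome, was listed in 4 libraries with 1 or 2 counts each, at or under 0.23 CPM, a count scaled to a common library size, and was not tested.

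The libraries are labelled Huh-7 and HepG2, both established human liver cancer cell lines, and were made from oligo-dT selected RNA of untreated cells and of cells kept in 5 µmol/L of cinobufagin, some for 12 h and others for 24 h. Cinobufagin is a steroid of the bufadienolide class, found in toad venom, that inhibits the sodium and potassium pump of the cell membrane. There were 3 untreated Huh-7 libraries, 1 untreated HepG2 library, and 3 libraries of each line at each treated time. Every p-value against untreated HepG2 therefore rests on a spread taken from the replicated groups. The 12 h and 24 h libraries of a line were compared with the same untreated libraries, so the comparisons within a line share them. The sources used here do not say whether untreated cells received a vehicle, at which time they were harvested, or whether replicates were separate cultures, so p-values measure the spread between libraries, which may be technical.

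The proteasome degrades proteins that carry ubiquitin chains. Its 20S core is a barrel of alpha and beta rings, with the cutting sites on the beta subunits PSMB5, PSMB6 and PSMB7. In cells exposed to interferon these are replaced by PSMB8, PSMB9 and PSMB10, which form the immunoproteasome and alter the peptides shown on class I molecules. The 19S particle caps the core: its base holds a ring of ATPases that unfold substrates, and its lid removes ubiquitin. Activators of the PSME family can take the place of the 19S particle, and chaperones of the PSMG and PSMD families help to assemble core and base. When proteasome capacity falls short, the transcription factor NFE2L1 is known to raise many subunit genes together through antioxidant response elements in their promoters.

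Sequences upstream of 6 members are printed because they pair genes that share a motif with genes whose RNA moved in different ways below. Each is the 250 bases before the gene's start from RefSeq, build GRCh38.p14, written 5′ to 3′ on the gene's strand. Capitals mark matches, on either strand, to the antioxidant response element core TGACNNNGC, to CCAAT, or to the interferon-stimulated response element core, which is GAAA, any pair of bases and GAAA again. N is any base.
PSMB9 (chr6:32853942-32854191, plus strand): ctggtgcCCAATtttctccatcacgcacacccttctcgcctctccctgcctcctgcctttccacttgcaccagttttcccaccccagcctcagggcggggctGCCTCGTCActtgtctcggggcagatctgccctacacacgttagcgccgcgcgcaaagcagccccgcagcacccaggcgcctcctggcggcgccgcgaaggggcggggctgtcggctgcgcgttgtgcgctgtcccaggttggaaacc
PSMB10 (chr16:67936851-67937100, minus strand): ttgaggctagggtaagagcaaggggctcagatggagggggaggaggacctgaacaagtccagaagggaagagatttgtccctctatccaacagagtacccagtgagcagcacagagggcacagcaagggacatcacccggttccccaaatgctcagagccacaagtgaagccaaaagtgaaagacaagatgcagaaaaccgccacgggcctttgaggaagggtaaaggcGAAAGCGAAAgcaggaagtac
PSME2 (chr14:24146611-24146860, minus strand): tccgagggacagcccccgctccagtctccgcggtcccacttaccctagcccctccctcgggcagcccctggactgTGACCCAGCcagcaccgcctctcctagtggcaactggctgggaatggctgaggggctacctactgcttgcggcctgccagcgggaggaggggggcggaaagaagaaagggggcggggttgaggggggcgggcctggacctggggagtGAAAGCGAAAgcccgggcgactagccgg
PSMG4 (chr6:3258697-3258946, plus strand): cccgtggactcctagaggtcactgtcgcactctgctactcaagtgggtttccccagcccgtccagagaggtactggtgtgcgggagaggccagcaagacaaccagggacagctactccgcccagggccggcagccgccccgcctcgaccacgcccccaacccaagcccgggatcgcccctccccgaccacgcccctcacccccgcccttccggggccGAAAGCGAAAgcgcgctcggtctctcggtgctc
PSMD3 (chr17:39980557-39980806, plus strand): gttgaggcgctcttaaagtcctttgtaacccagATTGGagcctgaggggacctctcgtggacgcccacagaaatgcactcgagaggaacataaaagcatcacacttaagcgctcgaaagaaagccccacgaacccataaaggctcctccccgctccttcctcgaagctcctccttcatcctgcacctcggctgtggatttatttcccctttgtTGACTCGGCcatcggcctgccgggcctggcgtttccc
PSMD12 (chr17:67366578-67366827, minus strand): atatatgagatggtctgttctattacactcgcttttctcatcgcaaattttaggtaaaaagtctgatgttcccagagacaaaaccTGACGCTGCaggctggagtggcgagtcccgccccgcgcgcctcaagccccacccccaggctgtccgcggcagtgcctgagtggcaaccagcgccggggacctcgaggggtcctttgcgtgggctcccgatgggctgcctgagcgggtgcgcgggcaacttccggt

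A RefSeq promoter was matched for 43 of the 49 members. The antioxidant response element core stood in 11 of these (25.6%), against 11.0% of 27305 RefSeq promoters of the same length. CCAAT stood in 20 (46.5%, against 33.0%). The interferon-stimulated core stood in 5 (11.6%, against 3.07%), which were PSMA4, PSMB4, PSMB10, PSME2 and PSMG4. PSMB10, PSME2 and PSMG4 carried the same 10 letters, GAAAGCGAAA, starting 21, 28 and 33 bases before the start. The heat shock element core, which is GAA, TTC and GAA with NN between each, stood in 0 of the 43, against 0.439% of all promoters. A match in this window is a description of letters and not a binding site.

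The labels were set against cell type markers before the results. Of 10 hepatocyte markers, APOB, TTR and SERPINA1 were listed in no library, and AFP, APOA1 and TF had group means of 0.04 CPM or less in every group. The 7 listed markers summed to 33.3 to 34.3 CPM in untreated Huh-7, of which HNF4A gave 30.8, and to between 4.2 and 9.7 CPM in the libraries of the other 5 groups. The RNA of APOB, TTR, SERPINA1, AFP, APOA1 and TF was thus not listed or near 0 in the libraries labelled Huh-7 and HepG2, and both names are used here as labels only. The 5 stromal and endothelial markers summed to 47.8 to 53.3 CPM in untreated Huh-7 and 23.5 to 27.1 CPM after treatment, and to 139.4 CPM in untreated HepG2 and 29.7 to 62.2 CPM after treatment. The 3 markers of other epithelia summed to 408.5 to 411.3 CPM in untreated Huh-7 and 173.6 to 304.7 CPM after treatment, and to 992.6 CPM in untreated HepG2 and 458.0 to 741.5 CPM after treatment. The 6 blood cell markers, of which 3 were listed, summed to 0.5 to 6.6 CPM in all libraries. The part of these shifts in the results below was not tested. In such bulk samples, fewer cells of a type and less RNA per cell cannot be told apart. Totals ran from 9543048 to 10457853 counts per library, so that 3 counts, taken as the limit of a count of 0, were worth 0.287 to 0.314 CPM; such limits cover counting error only.

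Most proteasome genes were not called after cinobufagin, and more of those called were lower than higher. A gene is called here at an adjusted p under 0.05 and a change of at least 2-fold, where p comes from the quasi-likelihood test of edgeR and is adjusted by Benjamini and Hochberg's method over all 13633 genes tested. In Huh-7, 3 members were called higher and 9 lower at 12 h, which is 25.0% of 48, against 44.0% of all genes tested (16.8% higher and 27.1% lower). At 24 h there were 5 higher and 9 lower, or 29.2%, against 44.8% (17.9% and 26.9%). In HepG2, 1 was higher and 5 lower at 12 h or 12.5%, against 37.9% (14.3% and 23.6%), and 1 higher and 7 lower at 24 h, or 16.7%, against 36.4% (14.1% and 22.3%). Of the 9036 genes whose mean reached 10 CPM, a limit applied to the background after the data were seen, 39.1, 40.5, 34.0 and 32.1% were called in the same order. Unlike the members and all genes, more of these were higher than lower in each. The counts were 1893 higher and 1638 lower, 2036 and 1626, 1682 and 1388, and 1566 and 1334. Over the 4 comparisons, 17 members were called at least once and 31 never. PSMB8, PSMB9, PSMD4 and PSME3IP1 were lower in all 4, and no member was called higher in 1 and lower in another. These counts over the 4 comparisons together were not made for all genes, so no background stands beside them.

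**Figure D1:**
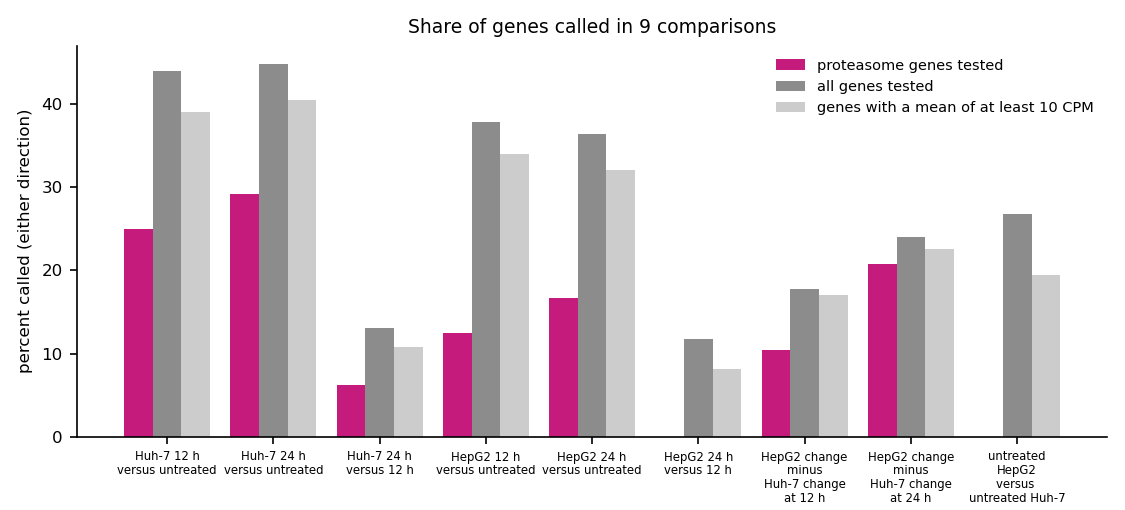
Percent of genes called in either direction in each of the 9 comparisons, for the 48 proteasome genes tested, all 13633 genes tested and the 9036 of them whose mean reached 10 CPM. The bar of the proteasome genes is the lowest of the 3 in every comparison, from 0 to 29.2%, and is nearest to the background for the difference between lines at 24 h, at 20.8% against 24.0%.

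By adjusted p alone, 21 members were higher and 21 lower in Huh-7 at 12 h, against 38.6% and 45.1% of all genes (83.7% in either direction). At 24 h 24 were higher and 23 lower, against 40.2% and 43.8% (83.9%). In HepG2 21 were higher and 18 lower at 12 h, against 33.3% and 40.4% (73.7%), and 12 were higher and 25 lower at 24 h, against 35.0% and 38.3% (73.3%).

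The median log2 change of the members was -0.02 at 12 h and 0.06 at 24 h in Huh-7, against -0.10 and -0.04 for all genes, and 0.02 and -0.19 in HepG2, against -0.09 and -0.01. The genes whose mean reached 10 CPM had medians of 0.12, 0.18, 0.12 and 0.16 in the same order, so the members lay below these in all 4 comparisons but above all genes in 3 of 4. Changes within 0.5 on the log2 scale were found for 25 of 48 members in Huh-7 at 12 h (52.1%, against 29.8% of all genes) and for 18 at 24 h (37.5%, against 29.5%). In HepG2 they were found for 29 (60.4%, against 34.8%) and 32 (66.7%, against 35.6%). Among the genes whose mean reached 10 CPM the shares were nearer, at 34.1, 32.1, 38.5 and 39.1% in the same order. The scale matters for these medians, since TMM factors were 1.225 to 1.239 in untreated Huh-7 and 0.917 to 0.972 after treatment. With plain library size the Huh-7 12 h median of all genes moved from -0.098 to -0.514 and with division by the library median to 0.069, while the members' median was 0.08 and 0.09 above it. With limma on FPKM the members' median lay below that of all genes in each of the 4 comparisons, at -0.428 against -0.325 and -0.289 against -0.242 in Huh-7, and at -0.373 against -0.303 and -0.453 against -0.17 in HepG2. The share of calls that were higher in Huh-7 at 12 h, under plain library size and the library median, moved from 25.0% to 7.69% and 46.2%.

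**Figure D2:**
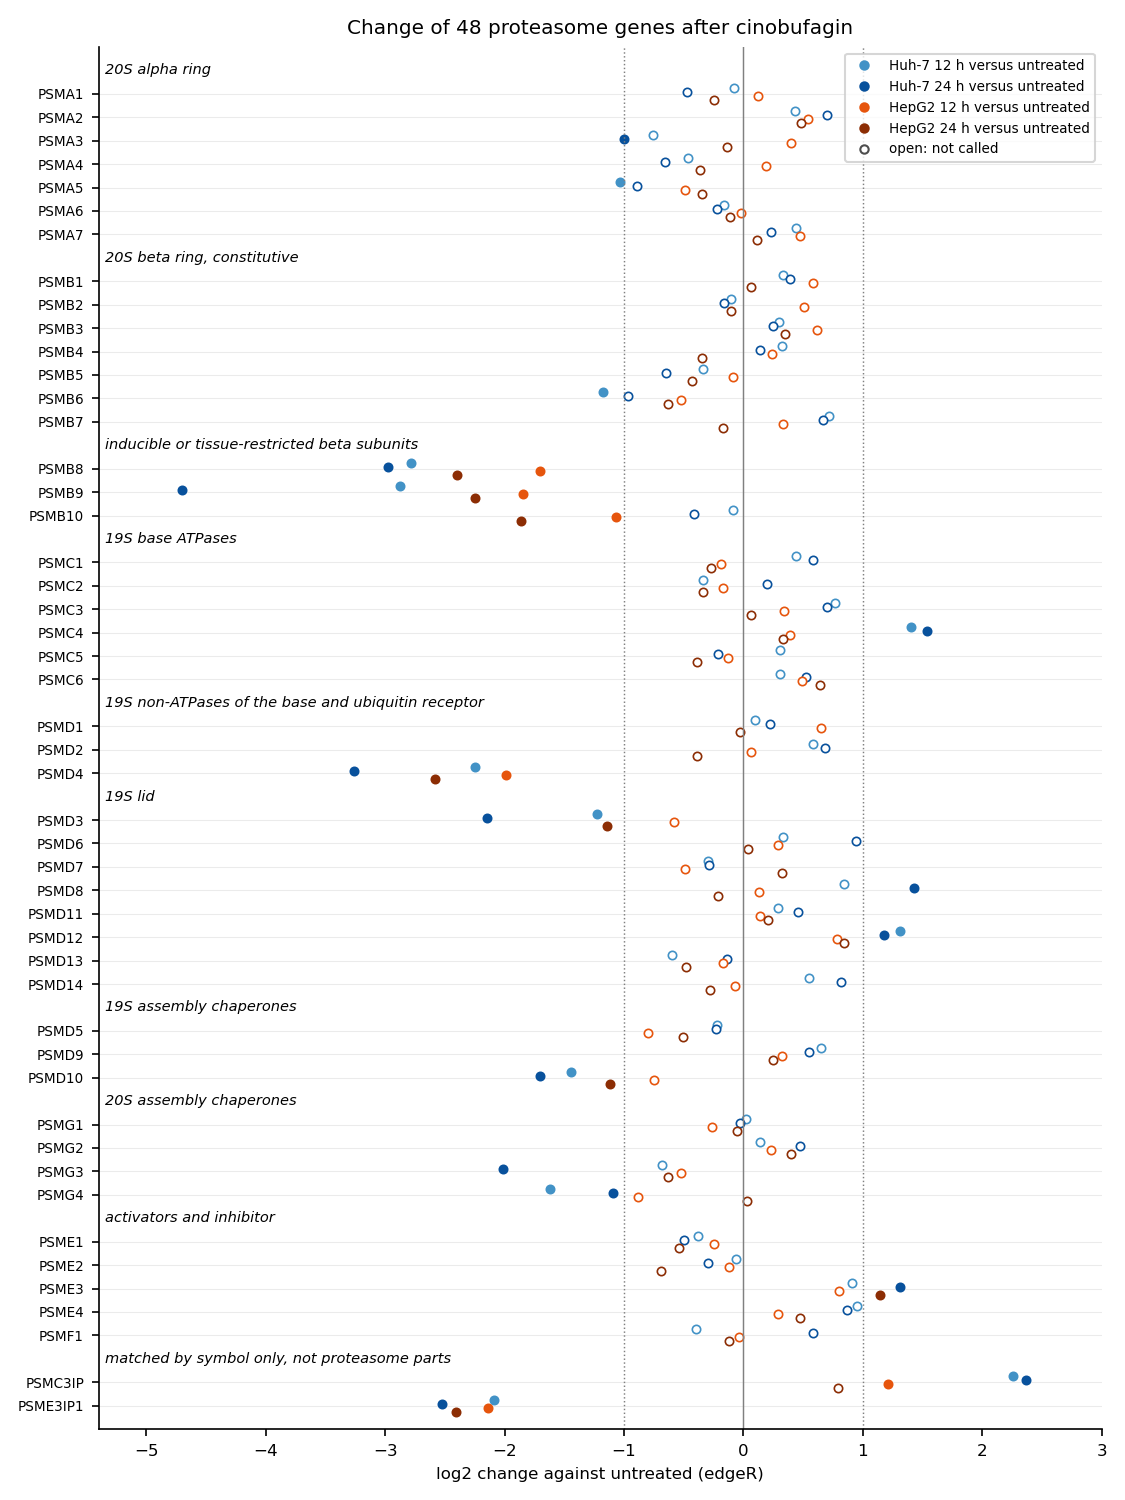
The log2 change against untreated libraries of each of the 48 members tested, in rows grouped by role, with 1 point per line and time (filled where called, dotted lines at 1 and -1). PSMB8, PSMB9, PSMD4 and PSME3IP1 lie to the left in all 4 comparisons, while most subunits of the core and the ATPase ring lie between the dotted lines.

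The alpha ring, which gates entry to the core, gave few calls. Of its 7 tested members, 1 was lower in Huh-7 at each time (14.3%, against 44.0 and 44.8% of all genes called). In HepG2 0 were called, against 37.9 and 36.4%. PSMA8, the testis-specific alpha subunit, was listed in no library. PSMA5 fell in Huh-7 from 127, 126 and 122 CPM in the untreated libraries to 59.7, 62.6 and 61.7 at 12 h, a log2 change of -1.03 ± 0.051 (SE). At 24 h its libraries read 66.0, 69.0 and 68.2 CPM, a change of -0.89, short of 2-fold. The 12 h call was lost with division by the library median. The untreated and treated libraries of PSMA5 did not overlap.
PSMA3 read 47.0, 47.1 and 46.9 CPM in untreated Huh-7 and 24.0, 25.3 and 21.0 at 24 h, a log2 change of -1.0 ± 0.069 at the edge of the 2-fold rule. Its 24 h call was lost without untreated replicate 1 or without 24 h replicate 3, and with division by the library median. In HepG2 its single untreated library read 34.2 CPM and its 12 h libraries 44.4, 47.7 and 43.3, which lie above it on this scale. The mean FPKM did not rise, at 40.4 untreated and 40.4 ± 2.05 (SD, n = 3) at 12 h. The other alpha subunits changed by less than 2-fold throughout, from -0.66 for PSMA4 to 0.70 for PSMA2 in Huh-7 at 24 h.

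The constitutive beta ring gave 1 call in the 4 comparisons, for 1 of 7 genes in Huh-7 at 12 h (14.3%, against 44.0% of all genes). It gave 0 in Huh-7 at 24 h and in HepG2, against 44.8, 37.9 and 36.4%. PSMB6, which cuts after acidic residues, read 83.4, 81.7 and 85.2 CPM in untreated Huh-7 and 35.3, 38.6 and 36.6 at 12 h, a log2 change of -1.18 ± 0.061. At 24 h it read 40.5, 45.9 and 41.1 CPM, a change of -0.97, and all treated libraries lay below the untreated ones. The 12 h call was lost with division by the library median. PSMB7, which cuts after basic residues, lay above its untreated libraries in Huh-7, at 231, 244 and 243 CPM untreated, 396, 403 and 387 at 12 h and 381, 396 and 363 at 24 h. Its changes of 0.72 ± 0.038 and 0.67 ± 0.038 were short of 2-fold. PSMB5, which cuts after hydrophobic residues and is the main target of bortezomib, changed by -0.34 and -0.65 in Huh-7 and by -0.09 and -0.43 in HepG2. The 3 catalytic genes of the constitutive core thus had changes of both signs in Huh-7.

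The inducible catalytic subunits had the lowest median change of the role groups in each of the 4 comparisons, though PSMB10 was not called in Huh-7 and in HepG2 the lowest single changes were those of PSME3IP1 at 12 h and PSMD4 at 24 h. PSMB8, which replaces PSMB5, read 62.7, 65.9 and 66.8 CPM in untreated Huh-7, then 9.17, 8.46 and 10.8 at 12 h and 7.96, 7.99 and 8.86 at 24 h. It fell 6.85-fold at 12 h and 7.86-fold at 24 h, with log2 changes of -2.78 ± 0.081 and -2.98 ± 0.081 (edgeR adjusted p of 2.95e-25 and 5.04e-26). In HepG2 the untreated library read 128 CPM, the 12 h libraries 38.2, 40.2 and 40.0, and the 24 h libraries 25.4, 22.2 and 25.2. That is a 3.24-fold and a 5.28-fold fall, and every treated library of either line lay below its untreated ones.

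PSMB9, which replaces PSMB6, read 11.6, 12.9 and 11.4 CPM in untreated Huh-7, 1.23, 2.17 and 1.47 at 12 h and 0.10, 0.52 and 0.72 at 24 h. The last 3 values rest on 1, 5 and 7 counts, against 140, 152 and 138 counts untreated, so the size of the 24 h change is imprecise. The log2 changes were -2.88 ± 0.20 and -4.70 ± 0.25. In HepG2 PSMB9 read 18.0 CPM untreated, 5.86, 5.11 and 4.01 at 12 h and 3.94, 3.54 and 3.86 at 24 h, falling 3.6-fold and 4.74-fold. It was one of 3 members called between 12 and 24 h in Huh-7, with a further change of -1.83 ± 0.42 (edgeR adjusted p = 0.000316), a call lost with limma on FPKM.

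PSMB10, which replaces PSMB7, did not follow the other inducible genes in Huh-7. It read 17.2, 15.5 and 14.2 CPM untreated and 15.8, 15.3 and 13.0 at 12 h, which overlap, with a change of -0.09 ± 0.11 (edgeR adjusted p = 0.46). PSMB10 had a mean FPKM of 19.2 untreated and 13.6 at 12 h, so the size of its 12 h change depends on the scale. At 24 h it read 10.96, 13.7 and 10.7 CPM, a change of -0.41 ± 0.11. In HepG2 it fell from 25.1 CPM to 11.9, 12.0 and 11.8 and then to 7.69, 7.76 and 5.25, with changes of -1.07 ± 0.14 and -1.86 ± 0.15. The 12 h call in HepG2 was lost with division by the library median. PSMB10 and PSME2 carry the same interferon-stimulated letters in the promoters printed above. PSMB8 carries none of the 4 motifs in the window before its RefSeq start, the only part of that gene searched. Whether any of these letters bear on the changes was not tested.

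**Figure D3:**
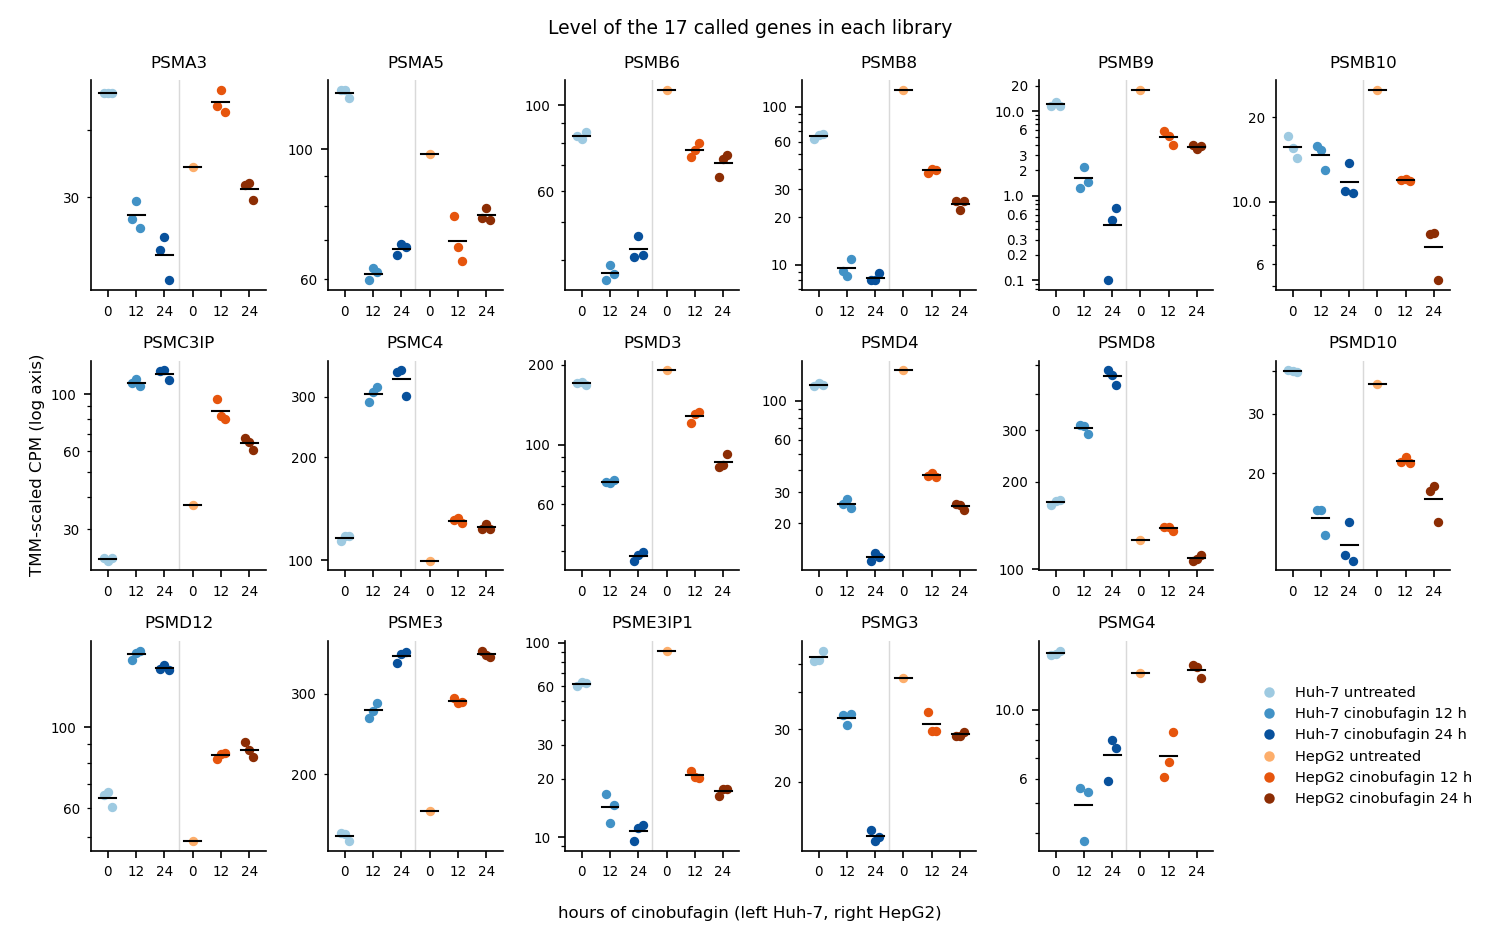
TMM-scaled CPM of called members in each of the 16 libraries, by line and time, on log axes, with 1 point per library and a bar at the group mean. PSMB8 and PSMD4 are lower in every treated library of both lines than in the untreated ones, and PSMB9 in Huh-7 at 24 h reaches 0.10 CPM.

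The RNA of each inducible gene was set against that of its constitutive counterpart as a ratio of FPKM, a value per length, within a library. The ratio of PSMB8 to PSMB5 was 0.581 ± 0.0337 (SD, n = 3) in untreated Huh-7, 0.0937 ± 0.012 at 12 h and 0.093 ± 0.00535 at 24 h. In HepG2 it was 0.854 in the untreated library, 0.255 ± 0.00455 at 12 h and 0.212 ± 0.00542 at 24 h. The ratio of PSMB9 to PSMB6 went from 0.118 ± 0.0104 to 0.036 ± 0.00919 and 0.00861 ± 0.00614 in Huh-7. In HepG2 it went from 0.135 to 0.0539 ± 0.012 and 0.0442 ± 0.00502. The ratio of PSMB10 to PSMB7 went from 0.067 ± 0.00819 to 0.038 ± 0.00329 and 0.0317 ± 0.00324 in Huh-7, where PSMB7 lay higher and PSMB10 was not called. No treated library reached the lowest untreated ratio of its line for any of the 3 pairs. A ratio shows unequal change in FPKM and does not say which gene moved. FPKM also depends on the deposited length, which shifted. In Huh-7 the mean length of PSMB8 was 1260.8 untreated and 1464.5 at 24 h, and that of PSMB5 1292.0 and 1213.1. In HepG2 the length of PSMB8 was 1295.4 untreated, 1402.8 at 12 h and 1320.1 at 24 h, and that of PSMB5 1291.2, 1274.3 and 1288.7. The fall of the PSMB8 ratio in both lines is thus partly one of length, in HepG2 more at 12 h than at 24 h.

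**Figure D4:**
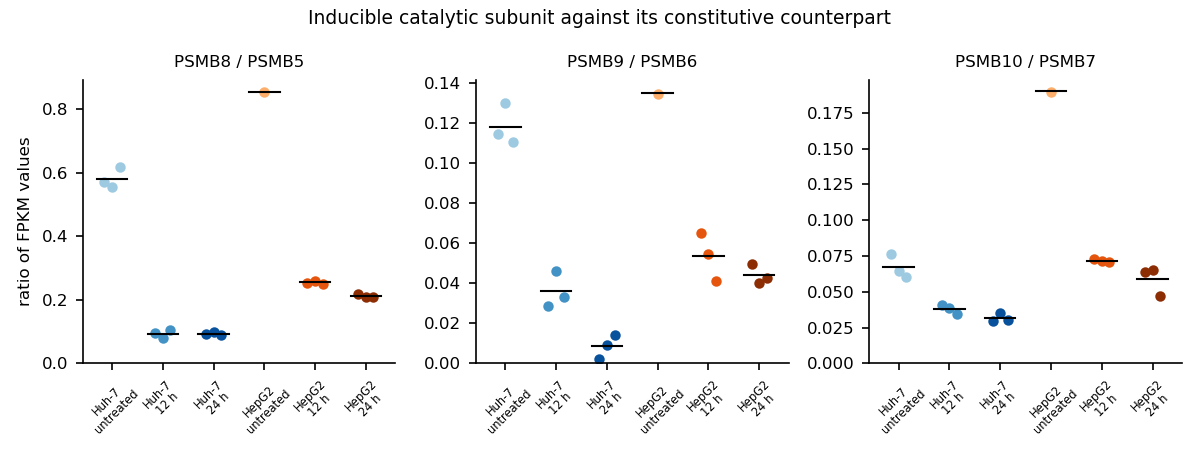
Ratio of the FPKM of each inducible beta subunit to that of the constitutive subunit it replaces, on linear axes from 0, with 1 point per library and a bar at the group mean. For PSMB8 over PSMB5 the untreated libraries lie at 0.554 to 0.619 in Huh-7 and 0.854 in HepG2, and all treated libraries lie at or below 0.26.

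The ATPase ring of the 19S base had 1 called gene of 6 in Huh-7 at each time (16.7%, against 44.0 and 44.8% of all genes). In HepG2 it had 0, against 37.9 and 36.4%. PSMC4 read 113, 117 and 118 CPM in untreated Huh-7, 290.5, 309 and 319.8 at 12 h and 356, 359 and 301 at 24 h. It rose 2.64-fold and 2.92-fold, with log2 changes of 1.40 ± 0.05 and 1.54 ± 0.05. The 12 h call was lost with plain library size and with limma on FPKM. In HepG2 PSMC4 read 99.5 CPM untreated, 131, 132 and 128 at 12 h and 123, 127 and 124 at 24 h, changes of 0.39 ± 0.079 and 0.33 ± 0.079. The other ATPases changed by less than 2-fold, from -0.34 for PSMC2 to 0.77 for PSMC3 in Huh-7 at 12 h. By adjusted p alone, 5 of 6 were higher and 1 lower in Huh-7 at each time, and in HepG2 3 were higher and 2 lower at 12 h and 2 higher and 3 lower at 24 h, beside the shares of all genes given above by this rule (83.7, 83.9, 73.7 and 73.3% in either direction).

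PSMD4, the ubiquitin receptor of the 19S base that binds the chains of substrates, showed the lowest log2 change of any 19S gene. It read 121, 126 and 123 CPM in untreated Huh-7, 25.8, 27.5 and 24.3 at 12 h and 12.2, 13.5 and 12.9 at 24 h. In HepG2 it read 149.7 CPM untreated, 37.3, 38.8 and 36.6 at 12 h and 25.8, 25.6 and 23.7 at 24 h. The falls were 4.77-fold and 9.59-fold in Huh-7 and 3.98-fold and 5.98-fold in HepG2, with edgeR adjusted p of 4.03e-27, 4.38e-30, 4.46e-23 and 1.63e-25, the last 2 against a single untreated library. Per length, its mean FPKM went from 115 to 9.41 in Huh-7 at 24 h and from 133 to 18.5 in HepG2. PSMD2, the scaffold of the base that docks ubiquitin-like domains, was not called and had changes of 0.58 and 0.68 in Huh-7 and 0.06 and -0.39 in HepG2.

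Genes of the lid moved apart from each other. PSMD3, a scaffold subunit of the lid, fell in Huh-7 from 170.5, 172 and 168 CPM to 72.8, 71.8 and 73.7 at 12 h and 36.7, 38.5 and 39.5 at 24 h, which is 2.34-fold and 4.45-fold. In HepG2 it read 191 CPM untreated, 121, 131 and 133 at 12 h and 82.4, 84.3 and 92.7 at 24 h. Its 24 h fall there was 2.21-fold, and its 12 h change of -0.58 ± 0.059 was not called. PSMD12, another scaffold subunit, rose in Huh-7 from 65.2, 66.3 and 60.3 CPM to 153, 159.6 and 162 at 12 h and 144, 148 and 144 at 24 h, which is 2.48-fold and 2.27-fold. Both calls were lost with plain library size and with limma on FPKM, and the 24 h call with upper-quartile scaling. Both promoters are printed above, and both hold a match to the antioxidant response element core. A link between these matches and the changes was not tested.

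PSMD8, also of the lid, read 166, 171 and 173 CPM in untreated Huh-7, 313, 310.0 and 291 at 12 h and 482, 463 and 429.8 at 24 h, a log2 change of 1.43 ± 0.04 at 24 h. In HepG2 it read 126 CPM untreated and 107, 108 and 112 at 24 h, a change of -0.21 ± 0.065. PSMD14, the deubiquitinase of the lid, was not called, with changes of 0.55 and 0.82 in Huh-7 and -0.07 and -0.28 in HepG2. Over the 17 genes of the 19S particle, 2 were called higher and 2 lower in Huh-7 at 12 h, and 3 higher and 2 lower at 24 h, or 23.5 and 29.4%, against 44.0 and 44.8% of all genes. In HepG2, 0 were higher, with 1 lower at 12 h and 2 lower at 24 h, or 5.88 and 11.8%, against 37.9 and 36.4%. The median log2 change of the 17 was 0.31 and 0.52 in Huh-7 and 0.06 and -0.21 in HepG2, beside the medians of all genes given above. The direction in Huh-7 at 12 h depended on the scale, since the summed level of the 17 was 2002.7 CPM untreated and 2630.0 at 12 h after TMM scaling but 0.246 and 0.242% of counts.

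Of the chaperones that assemble the base, PSMD10, also known as gankyrin, fell in Huh-7 from 40.3, 40.0 and 39.7 CPM to 15.6, 15.5 and 13.1 at 12 h and 11.5, 14.3 and 11.02 at 24 h. These are falls of 2.71-fold and 3.26-fold. In HepG2 it read 36.6 CPM untreated and 17.8, 18.3 and 14.4 at 24 h, a 2.18-fold fall. PSMD5 and PSMD9, the other chaperones of this group, were not called. Their changes against untreated libraries were of opposite sign in each line at each time (-0.22 and 0.65 in Huh-7 at 12 h).

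Of the chaperones that assemble the core, PSMG3 read 51.05, 51.5 and 55.4 CPM in untreated Huh-7, 33.7, 31.2 and 33.7 at 12 h and 13.7, 12.6 and 13.0 at 24 h. It fell 4.02-fold at 24 h, most of it after 12 h, with a change between the times of -1.33 ± 0.086. Its partner PSMG4 read 15.0, 15.1 and 15.5 CPM untreated, 5.59, 3.77 and 5.43 at 12 h and 5.89, 7.99 and 7.52 at 24 h, falls of 3.08-fold and 2.13-fold. The 24 h call of PSMG4 was lost without 24 h replicate 1, and with division by the library median. In HepG2 PSMG4 read 13.1 CPM untreated, 6.08, 6.78 and 8.46 at 12 h and 13.9, 13.8 and 12.7 at 24 h, with changes of -0.88 ± 0.17 and 0.03 ± 0.15. PSMG1 and PSMG2, which form the other chaperone pair, were not called, with changes from -0.26 to 0.47.

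Among the activators, PSME3, which forms the nuclear PA28 gamma ring, rose in both lines at 24 h. It read 149, 148 and 143 CPM in untreated Huh-7, 266, 276 and 287 at 12 h and 349.7, 367 and 371 at 24 h, a 2.47-fold rise. In HepG2 it read 166 CPM untreated, 294, 287 and 288 at 12 h and 373, 364 and 361 at 24 h, a 2.2-fold rise. The treated libraries lay above the untreated ones in each line, though both 24 h calls were lost with plain library size and with limma on FPKM. PSME1 and PSME2, the interferon-inducible subunits of the other PA28 ring, were not called, with changes of -0.50 and -0.30 in Huh-7 at 24 h and -0.54 and -0.69 in HepG2. PSME4, which encodes the activator PA200, had changes of 0.95 ± 0.041 and 0.87 ± 0.041 in Huh-7, just short of 2-fold. PSMF1, an inhibitor of the core, read 68.5, 65.5 and 63.9 CPM in untreated Huh-7, 49.2, 50.2 and 50.6 at 12 h and 94.7, 97.8 and 104 at 24 h, so that its 12 h and 24 h libraries lay on opposite sides of the untreated ones.

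The members matched by symbol only are not proteasome parts. PSMC3IP, which acts with the recombinase DMC1 in meiosis, read 23.3, 22.7 and 23.3 CPM in untreated Huh-7, 111, 114 and 107 at 12 h and 123, 124 and 113 at 24 h, rises of 4.79-fold and 5.19-fold. In HepG2 it rose 2.31-fold at 12 h, from 37.2 CPM to 95.3, 82.3 and 80.2, a call lost with plain library size and with limma on FPKM. PSME3IP1, which binds PSME3, fell in Huh-7 from 59.8, 62.8 and 61.9 CPM to 16.7, 11.9 and 14.6 at 12 h and 9.51, 11.1 and 11.5 at 24 h. In HepG2 it fell from 91.4 CPM to 21.9, 20.3 and 20.1 and to 16.4, 17.7 and 17.6, so it and its partner PSME3 had changes of opposite sign in each of the 4 comparisons.

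The summed level of the 47 proteasome parts depended on the scale. In TMM-scaled CPM it was 5020.2 in untreated Huh-7, 5988.6 at 12 h and 6106.8 at 24 h (means), whereas as a share of counts it was 0.618, 0.552 and 0.589%, so the direction flips between scales. In HepG2 the sum was 4770.3 CPM untreated, 4980.4 at 12 h and 4294.7 at 24 h, and the share 0.559, 0.443 and 0.418%. The summed inducible beta genes were lower after treatment on both scales, at 92.7, 25.9 and 20.5 CPM in Huh-7 and 171.2, 56.4 and 35.0 CPM in HepG2, with shares of 0.0114, 0.00239 and 0.00198% and of 0.0201, 0.00502 and 0.00341%.

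Between 12 and 24 h few members were called. In Huh-7 PSMB9, PSMD4 and PSMG3 were lower at 24 h and 0 were higher, 6.25% of 48 against 13.1% of all genes (6.51% higher and 6.54% lower). By adjusted p alone 17 were higher and 16 lower, against 31.2% and 30.4% (61.5% in either direction). PSMD4 changed by -1.01 ± 0.085, and its call was lost without 12 h replicate 2 or 24 h replicate 1, with plain library size and with limma on FPKM. In HepG2 0 members were called by edgeR with the 2-fold rule, against 11.8% of all genes (6.54% higher and 5.31% lower). There 8 were higher and 28 lower by adjusted p alone, against 30.4% and 31.2% of all genes (61.5% in either direction). The median change of members there was -0.27, against -0.01 for all genes.

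The lines differed in their response for some members, as tested by the interaction of line and treatment in the same fit. At 12 h 3 members had a higher change in HepG2 than in Huh-7 and 2 a lower one, which is 10.4%, against 17.8% of all genes (9.4% higher and 8.35% lower). At 24 h the counts were 4 and 6, or 20.8%, against 24.0% (13.1% and 10.9%). By adjusted p alone 17 were higher and 16 lower at 12 h, against 26.6% and 25.1% (51.7% in either direction), and 14 higher and 25 lower at 24 h, against 29.9% and 30.2% (60.1%). PSMD8 had the lowest difference at 24 h, HepG2 change minus Huh-7 change, at -1.64 ± 0.076, and PSMC4 was lower at both times, at -1.01 ± 0.094 and -1.22 ± 0.093. At 24 h 13 of 17 genes of the 19S particle had a lower change in HepG2 by adjusted p alone and 3 a higher one, with a median difference of -0.35, against -0.01 for all genes. PSMB8 and PSMB9 fell less in HepG2 than in Huh-7 at 12 h, by 1.08 ± 0.12 and 1.03 ± 0.30, while PSMB10 fell more there at 24 h, by -1.45 ± 0.19. The HepG2 side of each difference rests on 1 untreated library, for which the fit borrows its spread from the replicated groups.

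**Figure D5:**
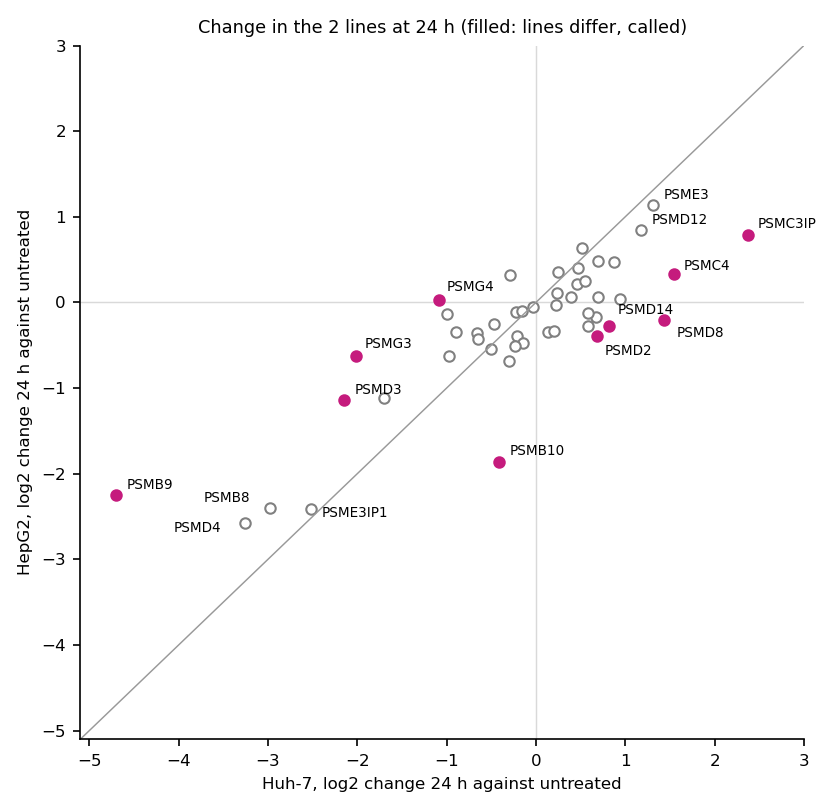
The log2 change in HepG2 against that in Huh-7 for the 48 members at 24 h, with 1 point per gene, filled where the lines differed and were called, and a line of equal change. PSMD8 and PSMC4 lie below that line at the right, with Huh-7 changes of 1.43 and 1.54 and HepG2 changes of -0.21 and 0.33, while PSMD4 is low on both axes at -3.26 and -2.58.

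The untreated lines were compared by their levels. Of 48 members 0 were called by edgeR between untreated HepG2 and untreated Huh-7 with the 2-fold rule, against 26.8% of all genes (13.8% higher and 13.1% lower). By adjusted p alone 23 were higher and 21 lower in HepG2, against 37.0% and 32.7% (69.7% in either direction). The extremes were PSMB8, at 0.98 ± 0.067, and PSME4, at -0.95 ± 0.067. Of the 14 genes of the constitutive core, 3 were higher and 11 lower in HepG2 by adjusted p alone, with a median of -0.40. The inducible PSMB9 and PSMB10 and the activators PSME1 and PSME2 had differences of 0.58, 0.68, 0.52 and 0.64.

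Genes that work with the proteasome but lie outside its PSM names were read from lists chosen with earlier results of these data known. Of 12 partners, 4 were higher and 2 lower in Huh-7 at each time, 3 and 3 in HepG2 at 12 h, and 1 and 1 at 24 h. These are 6 of 12 in each of the first 3 comparisons and 2 of 12, or 16.7%, in the last, against 44.0, 44.8, 37.9 and 36.4% of all genes. POMP, the maturation factor of the core, rose in all 4, from a mean of 58.2 CPM to 160 and 166 in Huh-7 and from 28.1 to 86.9 and 77.4 in HepG2. PAAF1, an assembly chaperone of the base, fell in all 4, from 17.3 to 0.45 and 1.72 CPM in Huh-7 and from 16.8 to 0.93 and 4.18 CPM in HepG2. The mean of 0.45 CPM lies near the limit of 3 counts, so the size of that fall is imprecise. AKIRIN2, which imports proteasomes into the nucleus, rose in 3 of 4, with log2 changes of 2.24, 1.74 and 1.27, and was at 0.73 in HepG2 at 24 h. ZFAND2A, an arsenite-inducible partner, rose by 1.74 in Huh-7 at 12 h and fell by 2.37 in HepG2, a difference of -4.11 ± 0.24.

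Of the 10 genes of the NFE2L1 pathway, 1 was higher and 2 lower in Huh-7 at 12 h, 1 and 0 at 24 h, and 3 and 1 in HepG2 at each time, which is 30.0, 10.0, 40.0 and 40.0%, near or under the same shares of all genes. NFE2L1 itself was not called, with changes of -0.87, -0.21, -0.71 and -0.12. DDI2, the protease that activates it, rose in Huh-7 at 24 h and in HepG2 at both times, by 1.26, 1.81 and 1.68, and NGLY1, which removes its glycans, fell by 1.43 in Huh-7 at 12 h and by 2.59 and 1.96 in HepG2. Of 11 genes for ubiquitin, E1 enzymes and shuttle factors, 2 were higher and 0 lower in Huh-7 at 12 h, 1 and 1 at 24 h, and 1 and 0 in HepG2 at each time, or 18.2, 18.2, 9.09 and 9.09%, all under the shares of all genes. The shuttle factor UBQLN1 rose by 1.77, 1.94 and 1.31 and was at 0.99 in HepG2 at 24 h.

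Of 14 genes of class I antigen processing, which uses the peptides of the immunoproteasome, 0 were higher and 3 lower in Huh-7 at 12 h, 3 and 1 at 24 h, 0 and 1 in HepG2 at 12 h, and 0 and 0 at 24 h. These are 21.4, 28.6, 7.14 and 0%, against 44.0, 44.8, 37.9 and 36.4% of all genes. NLRC5, the transactivator of class I genes, fell by 2.82 and 1.73 in Huh-7 and by 1.62 in HepG2 at 12 h, and was at -0.48 at 24 h. TAP1, the peptide transporter encoded beside PSMB9, had a mean of 61.7 CPM in untreated Huh-7 and 27.8 and 33.1 after treatment, and of 173 CPM in untreated HepG2 and 254 and 229 after treatment. Its response differed between lines by 1.70 ± 0.092 at 12 h and 1.30 ± 0.089 at 24 h, while its neighbour PSMB9 fell in both. HLA-E and B2M rose in Huh-7 at 24 h by 1.84 and 1.09.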

How the data were processed

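RNA of 16 libraries was measured by sequencing. Per the submitters' processing notes, HISAT, Bowtie2 and RSEM were used with hg19, with no versions given. The authors deposited expected counts, FPKM and a length per Entrez gene and library. Strand is not given in the sources used here, so reads of antisense genes cannot be told apart. Of 16697 identifiers, 16665 were named from a RefSeq table of GRCh38.p14. Expected counts were rounded, 3064 genes were removed by filterByExpr (0.023% of counts), and 13633 were tested with edgeR 4.0.16 in R 4.3.3 (TMM, quasi-likelihood, 6 groups, 10 residual degrees of freedom). The SE is the log2 change divided by the square root of F. CPM in the text is TMM-scaled. The test was checked on simulated data with 200 changed genes, of which 99% of those changed by 1.5 on the log2 scale were called for Huh-7 at 12 h. As many were raised as lowered there, whereas 16.8% of genes were called higher and 27.1% lower in these data. The check therefore does not cover the choice of scale. DESeq2 1.42.0 and limma 3.58.1 on log2(FPKM + 1) were alternatives. Every called member is named, and others by role. Members and lists were chosen with earlier results of these data known.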

Additional observations from a re-analysis of the deposited data

Results flagged for a closer look

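A change that differed between the lines, tested as the interaction of line and treatment with edgeR, marked 15 results. Each is given as the log2 change in HepG2 minus that in Huh-7, and the HepG2 changes share 1 untreated library.

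At 12 h the difference was -1.05 ± 0.12 (SE) for PSMC3IP, -1.01 ± 0.094 for PSMC4, 1.03 ± 0.30 for PSMB9, 1.08 ± 0.12 for PSMB8 and 1.16 ± 0.12 for PSMA3. The call of PSMB9 was lost without Huh-7 untreated replicate 2, Huh-7 12 h replicate 1 or 3, or HepG2 12 h replicate 1, and with limma on FPKM. The call of PSMC4 was lost without Huh-7 12 h replicate 3 or HepG2 12 h replicate 2 or 3, and under upper-quartile scaling, plain library size, no filter on low counts and limma. The call of PSMC3IP was lost without HepG2 12 h replicate 3 and under upper-quartile scaling, and that of PSMB8 with limma.

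At 24 h the difference was -1.64 ± 0.076 for PSMD8, -1.58 ± 0.12 for PSMC3IP, -1.45 ± 0.19 for PSMB10, -1.22 ± 0.093 for PSMC4, -1.10 ± 0.11 for PSMD14 and -1.07 ± 0.06 for PSMD2. It was 1.01 ± 0.082 for PSMD3, 1.13 ± 0.20 for PSMG4, 1.38 ± 0.12 for PSMG3 and 2.46 ± 0.39 for PSMB9. The last rests on 1, 5 and 7 counts in Huh-7 at 24 h. The call of PSMD3 was lost without Huh-7 untreated replicate 1 or 2, Huh-7 24 h replicate 1 or HepG2 24 h replicate 3, and that of PSMG4 without Huh-7 24 h replicate 1. The calls of PSMD14 and PSMD2 were lost under upper-quartile scaling and with limma, and that of PSMD2 also with plain library size.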

How the results depend on the processing

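None of the 58 called member results changed sign under the alternatives run, and 20 lost the call under at least 1 of them other than leaving out a library, 8 when 1 library was left out. DESeq2 and DESeq2's size factors kept all 58. The median log2 change of the members moved with the scale, and the cause was not tested. In Huh-7 at 12 h it was -0.289 with upper-quartile scaling, -0.436 with plain library size, 0.16 with division by the library median and -0.428 with limma on FPKM. In Huh-7 at 24 h the same 4 gave -0.22, -0.294, 0.166 and -0.289, and a limit of 10 CPM gave 0.173. In HepG2 at 12 h they gave -0.16, -0.379, 0.205 and -0.373, and the limit 0.086. In HepG2 at 24 h they gave -0.328, -0.458, -0.077 and -0.453. Between 24 and 12 h, plain library size, the library median and limma gave 0.008, -0.128 and 0.006 in Huh-7 and -0.14, -0.342 and -0.139 in HepG2. Upper-quartile scaling gave -0.034 for the line difference at 24 h and -0.055 for the untreated lines, where the library median gave -0.026.

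Without the 2-fold rule, members called were 42 and 47 in Huh-7 at 12 and 24 h, 33 between these times, 39 and 37 in HepG2, 36 between its times, 33 and 39 for the line difference and 44 for the untreated lines. All are of 48, and the shares of all genes in the same order were 83.7, 83.9, 61.5, 73.7, 73.3, 61.5, 51.7, 60.1 and 69.7%. The members lay above these shares in each comparison, whereas with the 2-fold rule they lay below the shares of all genes. Against the 9036 genes whose mean reached 10 CPM, the members' share was lower in Huh-7 at 12 h and between its times, and in HepG2 at 12 and 24 h. There 951, 2191, 1548 and 1565 of the 9036 were not called, against 6, 15, 9 and 11 of 48 members. In the remaining comparisons the members' share was higher or nearly level. With limma the count was 1 for Huh-7 between times, 2 for the line difference at 12 h and 1 for the untreated lines. Plain library size gave 1 for HepG2 between times and 2 for the untreated lines, upper-quartile scaling 3 for the line difference at 12 h and 3 for the untreated lines, and the library median 2 for the untreated lines. The replicate numbers did not pair the samples (correlations of -0.057 to 0.058). With the replicate block the count for the untreated lines was 1, PSMB8, and the line differences of PSMC3IP at 12 h and PSMD3 at 24 h lost their calls.

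Leaving out each library in turn, counts ranged from 12 to 12 and 13 to 15 in Huh-7 at 12 and 24 h, 2 to 3 between its times, 6 to 7 and 8 to 8 in HepG2, 0 to 1 between its times, 3 to 6 and 8 to 10 for the line differences and 0 to 1 for the untreated lines. The count of 3 came without HepG2 12 h replicate 3, which also called PSMG4 between the HepG2 times, and PSMB8 was called for the untreated lines without Huh-7 untreated replicate 3. Medians ranged from -0.041 to 0.005, 0.028 to 0.091, -0.072 to -0.03, 0.008 to 0.039, -0.2 to -0.176, -0.289 to -0.257, 0.068 to 0.14, -0.194 to -0.131 and 0.031 to 0.108 in the same order. Leaving out the HepG2 untreated library ends every comparison that uses it. At these depths PSMB9 in Huh-7 at 24 h, PSMB11 and, outside the members, PAAF1 in Huh-7 at 12 h lie near the limit of 3 counts.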
